A study of Mus musculus with 4 samples.

Results

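Mural cells, the pericytes and smooth muscle cells that cover small vessels, were examined in single-nucleus RNA sequencing data from the medial neocortex of mouse embryos at E16.5. Nuclei with 1500 to 60000 transcripts were taken as mural when they held at least 3 transcripts of Pdgfrb and at least 3 of Rgs5, Abcc9, Kcnj8 and Notch3 together, at most 2 of Flt1 and at most 1 of Dcn and Lum together. The rule found 204 mural nuclei among 29656 retained nuclei. They were compared with 388 endothelial nuclei, which held at least 3 transcripts of Flt1 and at least 3 of Pecam1, Cldn5, Kdr and Cdh5 together. Members were thus chosen by their transcript counts of these genes, whose levels are given only as a description.

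The series holds 2 libraries of Dnmt1 KO mice (Sst-Cre/tdTomato/Dnmt1 loxP2) and 2 of control mice (Sst-Cre/tdTomato). All 4 therefore carried the Cre driver and the tdTomato reporter, and they differed in the floxed Dnmt1 allele, which encodes the DNA methyltransferase that copies methylation at replication. Cre is driven by Sst, a gene of inhibitory interneurons. No Sst transcript was counted in any of the 204 mural nuclei, which allows a share of up to 1.47% of nuclei with one. Sst was rare elsewhere too, in 1.03% of endothelial nuclei and 0.871% of all other nuclei (outside the mural, endothelial and fibroblast gates). The 0 therefore does not set mural nuclei apart. Control replicate 2 was the single library of batch 2 and was built from 2 sublibraries, whereas the other 3 libraries were in batch 1 with 8 sublibraries each. The study describes the brains of each genotype as coming from separate mice, and the p-values below measure the spread between these libraries.

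Pericytes sit in the basement membrane shared with the endothelium. Endothelial PDGF-B recruits them through the receptor encoded by Pdgfrb, and they help to set vessel stability, capillary tone and the blood-brain barrier. Arteriolar smooth muscle cells share several of these genes and add a contractile set led by Acta2 and Myh11. ABCC9 and the channel subunit of Kcnj8 form the ATP-sensitive potassium channel of mural cells, and RGS5 dampens signals from G protein-coupled receptors.

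The gate held 34 nuclei of Dnmt1 KO replicate 1, 92 of Dnmt1 KO replicate 2, 47 of control replicate 1 and 31 of control replicate 2. Their summed transcripts came to 332915, 1197162, 940991 and 737687, and the median transcripts per mural nucleus were 8239, 9522.5, 13405 and 19422. Endothelial nuclei had medians of 12090, 11870, 12718.5 and 25085 in the same order. Control replicate 2 was thus the deepest library in both classes, and Dnmt1 KO replicate 1 the shallowest in mural nuclei. No barcode was shared between libraries, and 23 of the 204 mural nuclei were called doublets and kept.

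The gate did not hold a single kind of nucleus. An Abcc9 transcript was present in 160 nuclei and absent from 44. Ebf1, a transcription factor gene of mural and endothelial cells that the rule did not use, had at least 10 transcripts in 158 of the 160 nuclei, and none in 41 of the 44. No nucleus without Abcc9 reached 10 Ebf1 transcripts. This division was seen in the data and is described without a test. A nucleus near it was rare, as 1 nucleus with Abcc9 and 3 without it had 1 to 9 Ebf1 transcripts.

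**Figure D1:**
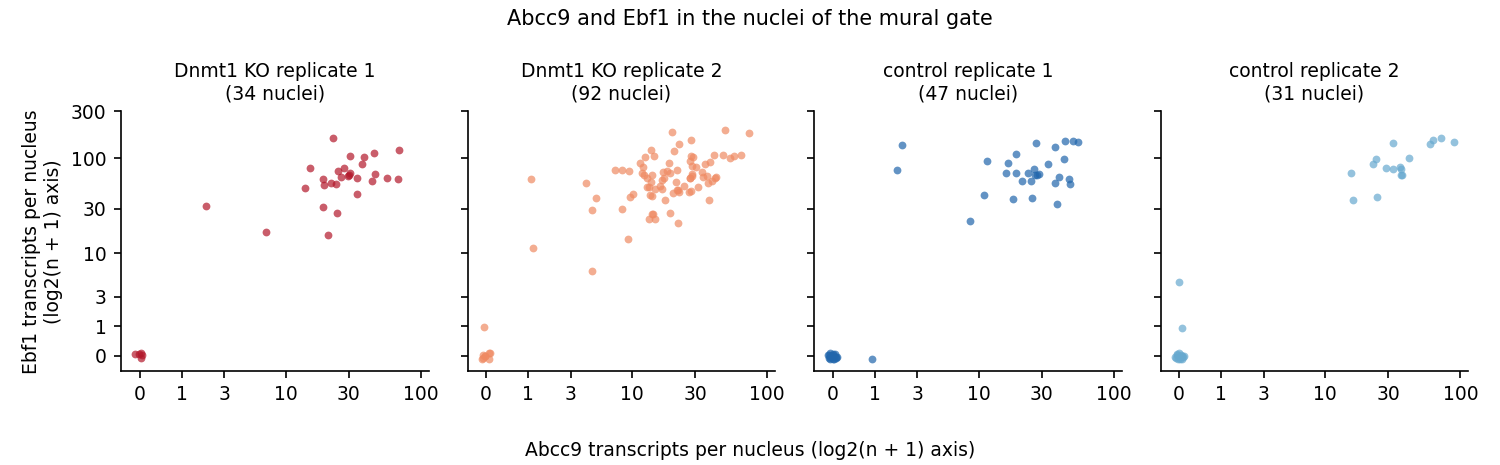
Each point is 1 nucleus of the mural gate, with its Abcc9 transcripts on the horizontal axis and its Ebf1 transcripts on the vertical axis, both as log2 of the count plus 1, with 1 panel for each library and a small seeded shift to part overlapping points. The nuclei fall into a cloud with both genes (158 with at least 10 Ebf1 transcripts) and a group at or near the origin (44 without Abcc9).

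The 44 nuclei without Abcc9 went against the name of the gate. The 26 other mural markers, which were not used by the rule, summed to between 316 and 590 CPM (transcripts scaled to the same total in every summed set) in them across libraries. The same sum was 13684 to 23508 CPM in the 160 nuclei with Abcc9 and 2520 to 3329 CPM in endothelial nuclei. In all other nuclei it was 315 to 664 CPM, close to that of the 44. The list includes Ebf1, which divided the gate above and is abundant in endothelium, so the endothelial sum rests largely on this gene. Of the 26 markers, 9 were at 0 in the 44 nuclei, among them Higd1b, Vtn, Tbx18 and Ednra, which allows a share of up to 6.82% with a transcript of each. Others were counted, with Lhfp in 72.7%, Pde5a in 59.1% and Cald1 in 45.5% of the 44. In all other nuclei these were counted in 34.6%, 28.1% and 33.2%, without regard to depth. Thinning nuclei to an equal number of transcripts left out shallower ones and kept all 44. Lhfp, Pde5a and Cald1 were then found in 47.7%, 22.7% and 11.4% of the 44. All other nuclei then had them in 24.0%, 16.1% and 18.6%. At equal depth Lhfp and Pde5a thus stayed more frequent in the 44, whereas Cald1 was less frequent there. The markers of progenitors and glia summed to 2982 to 8673 CPM in the nuclei without Abcc9, against 188 to 795 CPM in those with it, and 13 of the 15 markers on that list were counted in the former.

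Single genes separated the same way. Ptprz1, a receptor phosphatase of radial glia, averaged 3704 CPM over the libraries in nuclei without Abcc9 and 248 CPM in nuclei with it. Slc1a3, a glial glutamate transporter, averaged 980 and 47.0 CPM, and Fabp7, a fatty acid-binding protein of radial glia, 348 and 19.4 CPM. The Notch receptor gene Notch3, which admits a nucleus to the gate, averaged 194 CPM without Abcc9 and 674 CPM with it. Of the 44 nuclei, 39 met the second condition of the rule by Notch3 alone. They were also deeper, with library medians of 17599 to 36891.5 transcripts against 8026 to 13622 in nuclei with Abcc9, and 7 of the 44 were called doublets. The part of depth in this division was not tested. These 44 nuclei are given no cell type name here, and the counts of each gene list against endothelium are given for the whole gate and for the 160 nuclei.

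Near the limits of the rule the same mixture was visible. Of the 28 nuclei inside with exactly 3 Pdgfrb transcripts, 6 held Abcc9, and of the 50 just outside with 2, 2 held it. Of the 16 nuclei with exactly 3 transcripts of the other 4 genes, none held Abcc9. The limit on Flt1 kept out 36 nuclei that met the other conditions, and 19 nuclei inside had 2 Flt1 transcripts. The limit on Dcn and Lum kept out 6, all from Dnmt1 KO replicate 2.

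In the 160 nuclei the genes of the rule were high in every library. Abcc9 was 3816 and 1836 CPM in the Dnmt1 KO libraries and 1643 and 2917 CPM in the controls, against 0 to 20.7 CPM in endothelial nuclei. Rgs5 was 2159, 1216, 873 and 1619 CPM in that order, against 2.40 to 37.4 CPM in endothelial nuclei. Pdgfrb was 1571, 969, 921 and 1435 CPM and Kcnj8 was 197, 128, 116 and 120 CPM. None of the 4 genes had a library in which the endothelial level reached the mural one. This is a description only, since the mural nuclei were chosen by these genes. Abcc9 and Kcnj8 are neighbors on chromosome 6 of GRCm39, at chr6:142533588-142648571 and chr6:142510563-142517830 on the minus strand.

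Mural markers outside the rule were counted in very different shares of the 160 nuclei, whose median depth was 9402 transcripts, and of endothelial nuclei, whose library medians are given above. Cald1, encoding the actin-binding protein caldesmon, was counted in all 160 nuclei, Ednra, encoding the endothelin-1 receptor, in 98.8%, and Cspg4, encoding the NG2 proteoglycan of pericytes, in 93.1%. Endothelial nuclei had a transcript of these genes in 61.1%, 2.06% and 2.84% of cases. Nuclei were also thinned to 5000 transcripts each, which leaves out shallower ones. This kept 145 of the 160 nuclei and 374 of the 388 endothelial nuclei. Cald1 and Cspg4 were then found in 97.9% and 82.8% of the 145 nuclei, against 39.6% and 1.07% of the 374. Vtn, encoding vitronectin, was counted in 61.3%, Atp13a5, a pericyte ATPase gene, in 55.0%, and Higd1b, a mitochondrial protein gene, in 31.3%. In endothelial nuclei these 3 were found in 1.55%, 1.55% and 0.258%. After thinning, Vtn was found in 40.7%, Atp13a5 in 48.3% and Higd1b in 17.9% of the 145 nuclei. Ndufa4l2, Des and Foxs1 were counted in only 13.1%, 10.0% and 2.50% of the 160 nuclei. Other markers were common in endothelium as well, with Ebf1 in 99.2% of endothelial nuclei, Pde5a in 58.5%, Mcam in 45.9%, Foxf2 in 45.6% and Lhfp in 38.1%, and Foxf2 in 30.6% of the 160 nuclei.

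Some defining contractile genes of smooth muscle were at or near 0, although the whole list of 20 such genes summed to 682 to 1116 CPM in the 160 nuclei, 533 to 774 CPM in endothelial nuclei and 97.9 to 121 CPM in all other nuclei. Acta2 and Cnn1, encoding smooth muscle actin and calponin, were not counted in any of the 160 nuclei, which allows a share of up to 1.88% of nuclei with a transcript of each. Tagln, encoding transgelin, was counted in 1 nucleus, Myh11, encoding smooth muscle myosin, in 9, and Myocd, encoding the coactivator of this program, in 5. At least 3 transcripts of Acta2, Tagln, Myh11 and Cnn1 together were found in 0 of 34, 1 of 92, 0 of 47 and 0 of 31 nuclei of the whole gate. The libraries at 0 allow shares of up to 8.82%, 6.38% and 9.68%. Intervals and limits of this kind cover counting error only.

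The share of mural nuclei in the gate overlapped between genotypes, and its difference depended on the setting. It was 0.603% and 0.763% of retained nuclei in Dnmt1 KO and 0.667% and 0.632% in controls, with both controls between the KO values. The means were 0.683 ± 0.113% and 0.649 ± 0.0247% (SD, n = 2 libraries each), and an exact two-sided permutation test gave p = 1, where the smallest p that 2 against 2 libraries allow is 0.333. The difference of 0.0332 percentage points turned to -0.0466 without Dnmt1 KO replicate 2, and rose to 0.113 without Dnmt1 KO replicate 1. After thinning to 5000 transcripts, which leaves out shallower nuclei, it was 0.122 (0.537 against 0.415%). With doublet calls left out it was 0.0621 (0.657 against 0.595%). In both settings the KO libraries lay above the controls, at the smallest p of 0.333 in the exact permutation test. With a gate minimum of 2 transcripts they lay below, at the same p, with a difference of -0.0476 (0.997 against 1.04%). For the 160 nuclei with Abcc9 the difference was 0.208, given without a test. Among mural and endothelial nuclei together, mural nuclei made up 48.6% (exact 95% interval 36.4 to 60.8) and 28.5% (23.6 to 33.7) in Dnmt1 KO and 37.6% (29.1 to 46.7) and 41.9% (30.5 to 53.9) in controls. The 2 KO libraries stood at the extremes, with a mean difference of -1.22 points and p = 1 in the same exact permutation test. Dnmt1 KO replicate 2, which had the lowest mural part, had 1.91% endothelial nuclei against 0.638 to 1.11% elsewhere and 125 nuclei that met a fibroblast gate against 0 to 2 elsewhere, and their part in these shares was not tested.

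Nuclei without Abcc9 were spread unevenly over the libraries. They made up 14.7% (exact 95% interval 4.95 to 31.1) and 9.78% (4.57 to 17.8) of the mural gate in Dnmt1 KO, and 34.0% (20.9 to 49.3) and 45.2% (27.3 to 64.0) in controls. Both control values lay above both KO values. As a share of all retained nuclei, nuclei with Abcc9 were 0.514% and 0.688% in KO and 0.440% and 0.347% in controls, and nuclei without it 0.0887% and 0.0746% in KO and 0.227% and 0.285% in controls. Because the split was chosen after the data were seen, no p is given. In summed counts, fewer nuclei of a kind and less RNA per nucleus cannot be told apart, and the main genotype values are therefore given below with and without these nuclei.

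**Figure D2:**
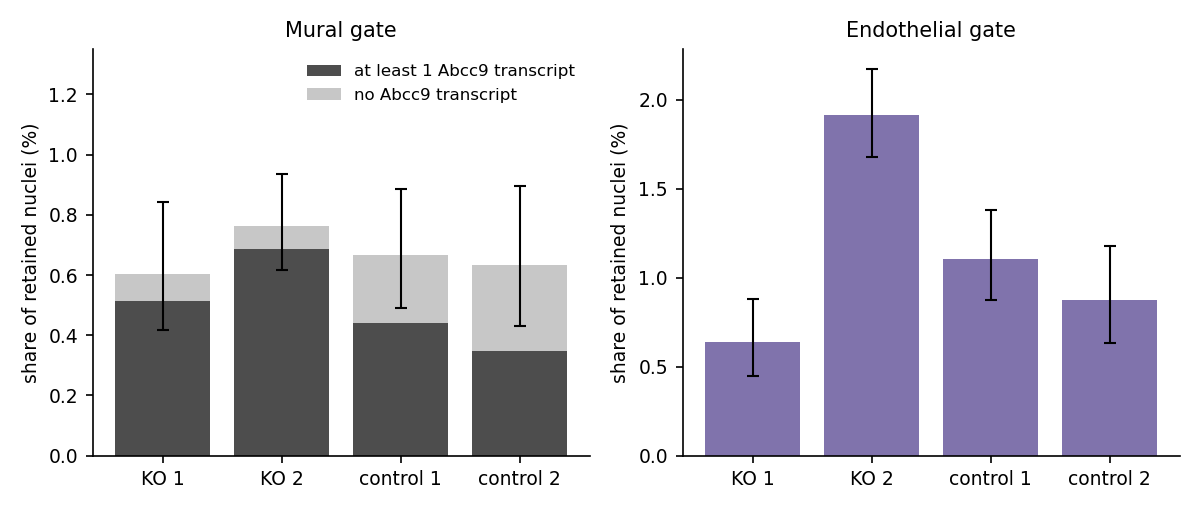
Bars start at 0 and give the share of retained nuclei in percent for each library, with the mural gate on the left, divided into nuclei with and without an Abcc9 transcript, and the endothelial gate on the right on its own scale. Error bars are exact 95% binomial intervals for the whole gate, and the mural bars lie between 0.603% and 0.763%, with a larger part without Abcc9 in the 2 control libraries.

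Next, summed counts of mural and endothelial nuclei were compared within the 4 libraries. The genes of the 2 rules were left out. The low-count filter could be met by counts of either class alone, so a gene near 0 in the other entered by the class where it was high. Since nuclei were assigned from the same transcript counts, the calls describe how reproducibly the gated sets differed across libraries and do not test that the classes exist. Of 9050 genes tested, 1256 (13.9%) were higher and 1336 (14.8%) lower in mural nuclei at an adjusted p under 0.05 in edgeR's quasi-likelihood test, with a median log2 fold change of 0.02 over all genes. With the 160 nuclei alone, an alternative added after the data were seen, 8011 genes could be tested, and 789 (9.85%) were higher and 871 (10.9%) lower. These shares of all genes are the background for each list count below, in the whole gate and in the 160 nuclei. Both comparisons called 1449 genes, all in the same direction. These were 87.3% of the calls in the 160 nuclei and 55.9% of those in the whole gate, and 87 genes called higher in the whole gate had an estimate below 0 in the 160 nuclei.

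The other mural markers were the list with the largest median difference upward. Of 23 tested, 20 were higher and 1 lower in the whole gate, with a median log2 fold change of 4.65, and 22 were higher and none lower in the 160 nuclei, with a median of 5.34. Ednra stood at 1313 and 926 CPM in the KO libraries and 395 and 411 CPM in the controls, against 0 to 14.1 CPM in endothelial nuclei. Its log2 fold change was 6.83 (SE 0.488, adjusted p = 7.61e-05). Higd1b and Tbx18, a T-box transcription factor gene of mural cells, were both higher by 6.36. Heyl, a target of Notch signaling, was higher by 6.26. In the libraries of the 160 nuclei all 4 were higher still, at 7.71, 7.01, 6.94 and 6.99.

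The most abundant members of that list were shared with the endothelium to different degrees. Cald1 was 2430, 1846, 1000 and 1049 CPM in mural and 133 to 243 CPM in endothelial nuclei, a log2 fold change of 3.06 (SE 0.223, adjusted p = 8.33e-05). Lhfp, a tetraspan protein gene, was higher by 3.87. Ebf1 did not pass the test in the whole gate, at 5809, 4771, 2607 and 2206 CPM against 2015 to 2582 CPM in endothelial nuclei (log2 fold change 0.57, SE 0.242, adjusted p = 0.127). In the 160 nuclei it was 4890 to 8301 CPM, a log2 fold change of 1.46. Foxf2, a forkhead gene of brain pericytes, was the 1 member lower in mural nuclei, at 9.49 to 48.1 CPM against 40.8 to 79.8 CPM (log2 fold change -1.43, adjusted p = 0.0136), and its difference was -0.64 in the 160 nuclei, where it was not called.

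**Figure D3:**
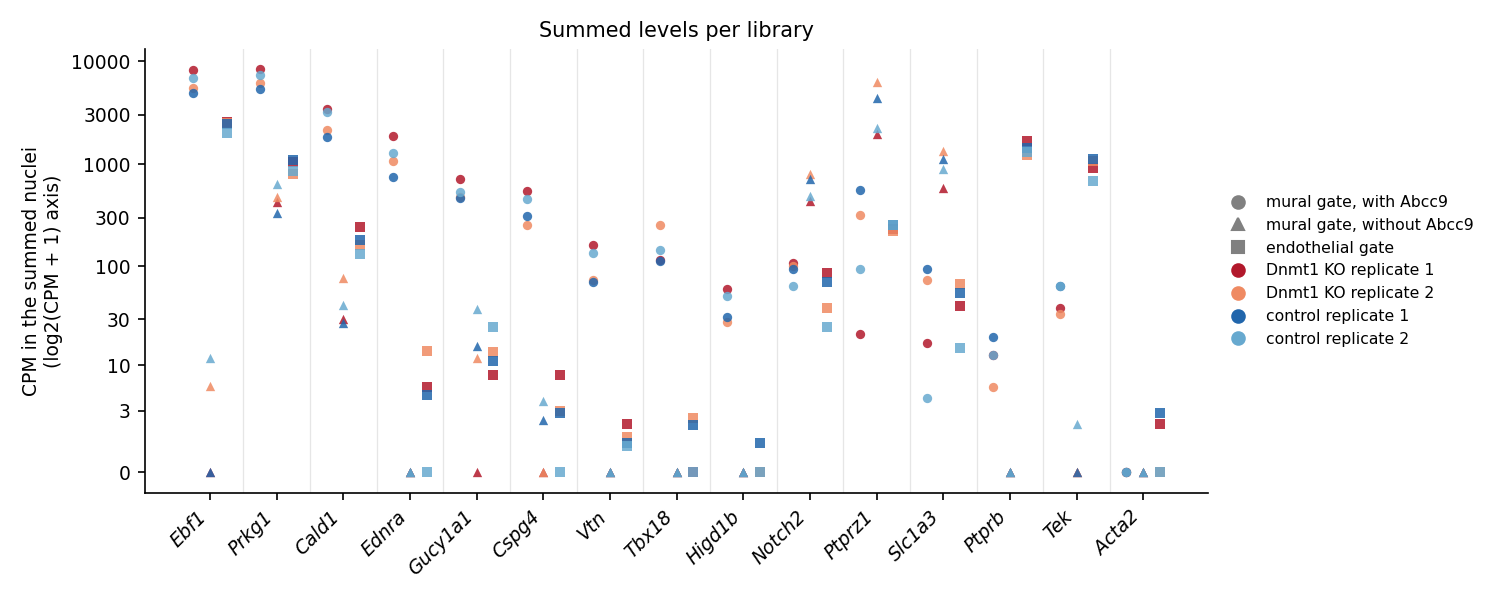
Points give the summed level of each gene per library as CPM on a log2(CPM + 1) axis, with circles for nuclei with Abcc9, triangles for nuclei without it, squares for endothelial nuclei and 1 color for each library. Ednra, Vtn, Tbx18 and Higd1b are at 0 in all 4 libraries of the nuclei without Abcc9, whereas Ptprz1 and Slc1a3 are higher there than in the other 2 sets in each library.

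Of 14 tested genes of endothelin, nitric oxide and sphingosine phosphate signaling, 9 were higher and 5 lower in mural nuclei, and in the 160 nuclei 8 and 5 of 13. The 9 higher genes encode receptors and enzymes that act on receiving these signals: Ednra, Ednrb, S1pr3, 3 guanylate cyclase subunits, Pde3a, Pde5a and Prkg1. The 8 higher calls in the 160 nuclei are among these. The remaining higher gene was not tested there, so its rise rests on the whole gate. Gucy1a2, a subunit gene of soluble guanylate cyclase, the nitric oxide receptor, was 1253, 1091, 710 and 607 CPM against 48.7 to 102 CPM in endothelial nuclei (log2 fold change 3.62, SE 0.328, adjusted p = 0.000203). Gucy1b1, the partner subunit, was higher by 4.48. Pde3a, a phosphodiesterase gene that limits cyclic nucleotides, was higher by 5.59, Prkg1, encoding the cGMP-dependent kinase, by 2.09, and S1pr3, a sphingosine phosphate receptor gene, by 5.41.

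Ece1, Edn1, Nos3, S1pr1 and Spns2 were the 5 lower genes. Edn1, encoding endothelin-1, had no transcript in the 204 mural nuclei and 20.7 to 29.0 CPM in endothelial nuclei. It was at least 24.6-fold lower than the pooled endothelial level of 23.0 CPM, against a limit of 3 counts over all mural transcripts. Nos3, encoding endothelial nitric oxide synthase, was counted in 1 mural library at 1.67 CPM, against 221 to 381 CPM in endothelial nuclei (log2 fold change -8.58, SE 0.437, adjusted p = 3.81e-05). The ranges of the 2 classes did not meet for either gene.

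Ion channels and exchangers gave 8 higher and 5 lower genes of 18 in the whole gate and 9 and 5 in the 160 nuclei. Ano1, a calcium-activated chloride channel gene, was 318, 308, 126 and 142 CPM against 0 to 7.78 CPM in endothelial nuclei (log2 fold change 6.08, SE 0.535, adjusted p = 0.000176). Cacnb2 and Cacna1c, which encode parts of the L-type calcium channel, were higher by 3.95 and 1.70. Kcnj2, the inward rectifier of brain capillary endothelium, was counted in 1 mural library at 0.835 CPM, against 42.3 to 91.4 CPM, and was lower by 7.07 on the log2 scale. Piezo1, a mechanosensitive channel gene, was lower too (log2 fold change -3.39).

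Transporters of the vessel wall also separated the 2 classes, with 8 of 13 higher and 4 lower, and 7 and 4 in the 160 nuclei. Atp13a5 was 210, 234, 378 and 191 CPM against 0 to 12.2 CPM (log2 fold change 5.62, SE 0.503, adjusted p = 0.000187). Slc38a11, an amino acid carrier gene, was higher by 4.83 and Slc6a20a, a proline transporter gene, by 4.11. Slc2a1, the glucose transporter of the blood-brain barrier, was 3.00 to 21.3 CPM in mural and 678 to 1049 CPM in endothelial nuclei (log2 fold change -5.81). Slc1a3 was called higher in the whole gate by 3.12, but by 0.01 in the 160 nuclei, where its level was 4.27 to 93.7 CPM against 15.2 to 67.2 CPM in endothelial nuclei.

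Of the other PDGF genes, 3 of 4 tested were lower and none higher, and 2 of 4 were lower in the 160 nuclei. Pdgfb, the endothelial ligand of PDGFRB, was 0 to 6.01 CPM in mural and 174 to 305 CPM in endothelial nuclei (log2 fold change -6.36, SE 0.401, adjusted p = 5.17e-05), and Pdgfd, a further ligand of that receptor, was lower by 4.65. Angpt1, the ligand that pericytes send to the endothelial receptor TIE2, was 195, 247, 156 and 302 CPM against 8.79 to 29.2 CPM, higher by 3.85 (SE 0.341, adjusted p = 0.000178). Tek, which encodes TIE2, was lower by 5.08, Tie1 by 5.81 and Ptprb, the phosphatase gene that opposes TIE2, by 7.64. Of 6 angiopoietin and TIE genes, 2 were higher and 3 lower, and in the 160 nuclei 1 and 3 of 5.

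Notch genes gave 3 higher and 7 lower of 18 in the whole gate, and 3 and 6 of 17 in the 160 nuclei. Of all genes, 13.9% were higher and 14.8% lower in the whole gate, and 9.85% and 10.9% in the 160 nuclei. The higher count in the whole gate was near that share. The higher genes were the targets Heyl and Hey2, the latter at 36.1 to 81.1 CPM against 0.936 to 3.89 CPM (log2 fold change 4.66, SE 0.300), and the receptor Notch2. The ligands Dll4 and Jag2 were lower, by 5.36 and 3.90 on the log2 scale. Notch2 depended on the nuclei without Abcc9, as it averaged 612 CPM in them and 91.8 CPM in the others, and its difference fell from 2.48 in the whole gate to 0.93 in the 160 nuclei. TGF-beta and BMP genes were mostly lower, 12 of 22 against 4 higher, and 10 of 20 against 3 in the 160 nuclei. Bmp5, a BMP ligand gene, was the exception with the largest rise, at 87.1 to 207 CPM against 0 to 3.60 CPM (log2 fold change 6.22, adjusted p = 7.24e-05), and Tgfbr2, a TGF-beta receptor gene, was lower by 3.23.

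VEGF genes counted 4 lower and 1 higher of 5, and 3 lower and none higher of 4 in the 160 nuclei. The higher one was Vegfa, at 21.0 to 33.9 CPM in the whole gate, with a mean of 11.2 CPM in nuclei with Abcc9 and 55.6 CPM in nuclei without it. Wnt and Norrin genes gave 6 higher and 9 lower of 21, and 3 and 7 of 19 in the 160 nuclei. Fzd4, the Norrin receptor gene, was lower by 3.84 and Lef1, a transcription factor gene of this pathway, by 4.07, whereas Axin2, a target and inhibitor of it, was higher by 1.41 at 131 to 240 CPM against 49.5 to 73.5 CPM. Of 8 chemokine and ephrin genes, 1 was higher and 4 lower, among them Cxcl12 (log2 fold change -3.36), and in the 160 nuclei 1 and 4 of 7.

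The basement membrane is built by both cell types, and its genes were divided, with 7 higher and 10 lower of 28 in the whole gate and 10 and 6 of 27 in the 160 nuclei. Lamc3, a laminin gamma chain gene, was 252, 185, 95.6 and 125 CPM against 0.799 to 5.62 CPM (log2 fold change 5.54, SE 0.368, adjusted p = 5.99e-05), and Lama2, a laminin alpha chain gene, was higher by 5.18. Lama4, the laminin alpha chain of endothelial basement membrane, was lower by 1.69 and Col15a1 by 2.86. Col4a1 and Col4a2, the main type IV collagen genes, did not pass the test, at log2 fold changes of -0.22 (SE 0.237) and -0.38 (SE 0.227) in the whole gate. In the 160 nuclei both estimates were above 0, at 0.66 and 0.47, and they were not called there either. Nid1, encoding nidogen, stood at 0.32 in the whole gate and at 1.16 in the 160 nuclei, where it was called.

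Of 18 transcription factor genes tested, 7 were higher and 5 lower, and 8 and 3 in the 160 nuclei. Besides Tbx18 and Heyl, these included Tbx2, a T-box gene, at 120, 117, 36.1 and 36.6 CPM against 0.799 to 2.81 CPM (log2 fold change 5.09, SE 0.358, adjusted p = 7.16e-05), and Zic1, a zinc finger gene, higher by 5.02. Zic1 was chosen after its values were seen. Klf2, a flow-responsive gene of endothelium, had no transcript in mural nuclei and 34.4 to 73.9 CPM in the endothelial libraries. It was at least 57.1-fold lower than the pooled endothelial level of 53.3 CPM, against a limit of 3 counts over all mural transcripts.

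Imprinted genes were higher more often than lower, 11 against 2 of 22 tested, and 8 against 2 of 21 in the 160 nuclei, beside 13.9% and 14.8% of all genes in the whole gate. Dlk1, a noncanonical Notch ligand gene expressed from the paternal copy, was 96.1, 46.8, 20.2 and 20.3 CPM against 0 to 0.300 CPM (log2 fold change 7.27, SE 0.474, adjusted p = 5.62e-05). Meg3, a long noncoding RNA of the same cluster, was higher by 3.17, Rian by 3.49 and Mirg by 3.99. Igf2, encoding an insulin-like growth factor, was 225, 200, 47.8 and 149 CPM against 1.60 to 22.5 CPM (log2 fold change 3.82), and Gnas, encoding the stimulatory G protein, was higher by 2.87. In each library the level of Meg3 in the 160 nuclei exceeded that in the 44, with 1746 to 3801 CPM against 85.4 to 387 CPM. Gnas, Meg3 and Airn overlap other transcripts, and the strand setting of the counting is not given in the sources used here.

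Smooth muscle genes could be tested for 7 of 20 members, and 3 were higher and 1 lower, and in the 160 nuclei 2 and 1 of 6. Mylk, encoding myosin light chain kinase, was 448, 391, 200 and 203 CPM against 21.6 to 58.4 CPM (log2 fold change 2.91, SE 0.205, adjusted p = 7.16e-05). Myl9, a myosin light chain gene, was higher by 5.86. Smtn, encoding smoothelin, was lower by 2.34. Synpo2, an actin-bundling protein gene, was higher by 1.54 in the whole gate, but at 0 to 10.7 CPM in the 160 nuclei it was too low to be tested there. Of 15 genes of cerebral small vessel disease and calcification, none was higher and 4 were lower in either set of nuclei.

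Markers of other cell types were examined in the same fits. All 26 endothelial markers tested were lower, with a median log2 fold change of -6.41, which was -5.81 with the 2 markers that had no mural transcript set at their bound, and in the 160 nuclei 25 of 26 were lower. Only 9 markers of this list could be tested among mural nuclei alone. Many of the 26 thus entered the fit by their endothelial counts, so their direction was partly fixed beforehand. Adgrl4, an adhesion receptor gene, was 0.835 to 6.01 CPM in mural and 1108 to 1424 CPM in endothelial nuclei (log2 fold change -9.44). Of 10 fibroblast markers tested, 6 were higher and none lower, and 7 and none of 9 in the 160 nuclei. The defining fibroblast markers Dcn and Lum were held down by the rule, and Col1a1 and Pdgfra were counted in 2 and 5 of the 160 nuclei and in none of those without Abcc9. Col3a1, a fibrillar collagen gene, was 147, 145, 48.9 and 40.7 CPM against 0 to 3.90 CPM (log2 fold change 5.53, SE 0.379, adjusted p = 6.88e-05). The fibroblast list summed to 800 to 1246 CPM in mural, 295 to 478 CPM in endothelial and 682 to 881 CPM in all other nuclei. That last set does not hold the 127 nuclei of the fibroblast gate. The list summed to 1156 to 2127 CPM in the 160 nuclei, highest in control replicate 2 and above that set without fibroblasts in every library. In nuclei without Abcc9 it summed to 330 to 394 CPM.

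Progenitor and neuron markers were higher in nuclei without Abcc9 than in those with it in each library. Of 8 progenitor and glial markers tested, 5 were higher and none lower in the whole gate, and 1 was higher and 1 lower of 6 in the 160 nuclei. Of 17 neuron markers, 2 were higher and none lower in the whole gate, beside 13.9% higher and 14.8% lower of all genes. In the 160 nuclei 0 of 16 passed in either direction. The neuron list summed to 3743 to 6446 CPM in nuclei without Abcc9, to 421 to 4121 CPM in those with it, and to 7962 to 10165 CPM in all other nuclei. Microglial markers summed to 27.6 to 45.1 CPM in the whole gate, with 6 of 12 at 0, erythroid genes to 9.01 to 24.2 CPM and choroid plexus markers to 12.8 to 38.0 CPM.

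Outside the lists, the largest rise among genes with at least 50 CPM in every mural library was that of Gm29478, a long noncoding RNA, at 141, 182, 163 and 70.5 CPM against at most 1.5 CPM (log2 fold change 7.49, SE 0.427, adjusted p = 3.85e-05). Ccdc3, a secreted protein gene, followed at 7.33 and Pde8b, encoding a cAMP-specific phosphodiesterase, at 6.68, with 2736, 1491, 1199 and 1086 CPM against 1.60 to 42.8 CPM. Gm4804 (6.64), a transcribed pseudogene whose reads may be shared with its parent, Adap2 (6.60), Ggt5 (6.20), Daam2 (6.20), Arhgap24 (6.06), Plekhg3 (5.99) and Slc16a12 (5.97) completed the 10. Each stayed at least as far from the endothelium in the 160 nuclei, and Gm4804 and Adap2 had no transcript in the 44.

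The largest falls were in genes with next to no mural transcript. Zfp366, encoding a nuclear corepressor, had 1 transcript in 204 mural nuclei and 618 to 1019 CPM in endothelial nuclei (log2 fold change -10.9, SE 0.413, adjusted p = 2.41e-05). Lcp1, encoding an actin-bundling plastin, also had a single transcript, against 487 to 533 CPM. Dipk2b, Sh3tc2, Ccm2l, AU021092, Gm20532, Gch1 and Samsn1 had none, and were at least 162-fold, 151-fold, 144-fold, 134-fold, 91.4-fold, 75.3-fold and 68.5-fold lower than in pooled endothelial nuclei. Pik3r6, encoding a regulator of PI3 kinase, was lower by 8.53 on the log2 scale.

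**Figure D4:**
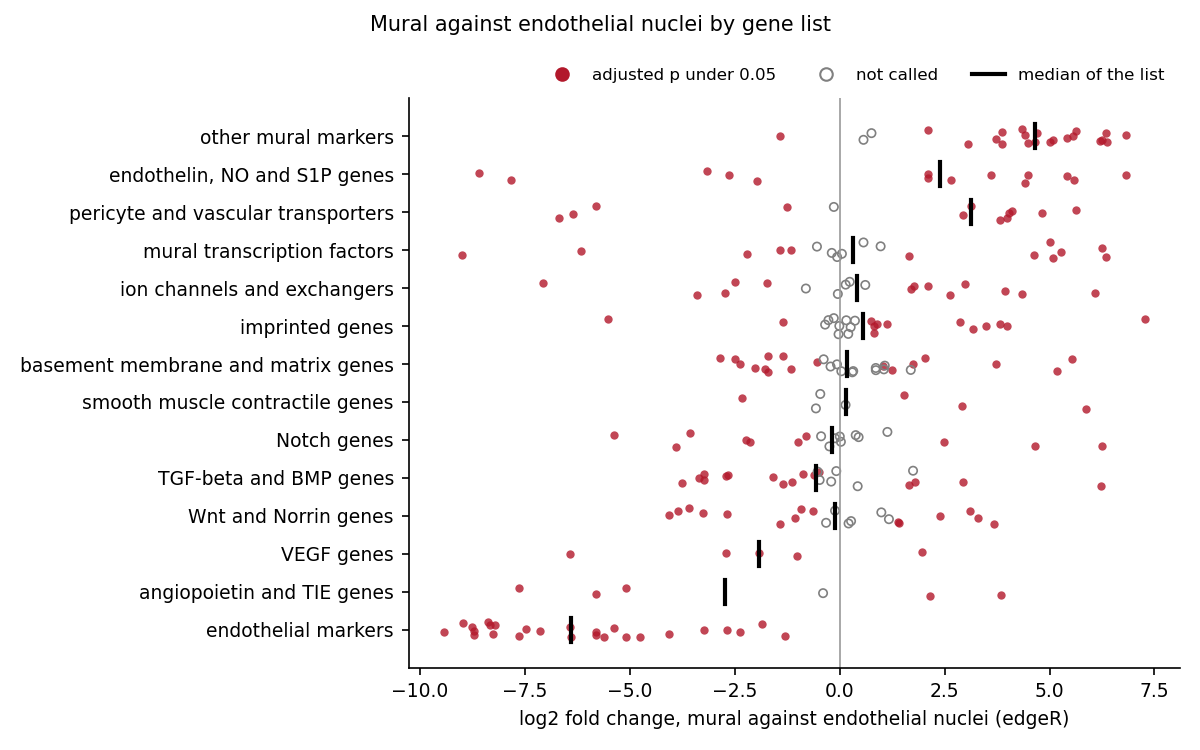
The horizontal axis gives the edgeR log2 fold change of mural against endothelial nuclei for each tested gene of 14 lists, 1 point a gene, for the whole gate, with filled red points for genes at an adjusted p under 0.05, open points for the others and a black bar at the median of each list. Other mural markers lie mostly to the right (median 4.65) and endothelial markers all to the left (median -6.41), and the signaling lists spread to both sides of 0.

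Transcripts of cell division genes were counted in a share of the gate. The share of nuclei with at least 5 transcripts of 25 genes of G2 and M phase was taken after thinning to 5000 transcripts. It was 29.2% and 29.3% of nuclei with Abcc9 in Dnmt1 KO and 24.1% and 5.88% in controls. Thinning left out nuclei below 5000 transcripts, so these shares are 7 of 24, 22 of 75, 7 of 29 and 1 of 17 nuclei. In Dnmt1 KO replicate 1 the same count of 7 stood among 29 nuclei without thinning. Endothelial nuclei had 14.3%, 25.2%, 21.1% and 16.7% after thinning and all nuclei 9.58 to 14.3%. Endothelial shares were lower than those of nuclei with Abcc9 in every library but control replicate 2. Without thinning they were higher in every library. Nuclei with Abcc9 then had 24.1%, 33.7%, 35.5% and 11.8% and endothelial nuclei 25.0%, 41.6%, 37.2% and 51.2%. The order of these sets thus rests on the thinning, which also leaves out shallow nuclei. After thinning the shares in nuclei without Abcc9 were 40.0%, 66.7%, 56.3% and 21.4%. After thinning, control replicate 2 was lowest in both mural sets. Of 23 genes of this list tested against endothelium, 11 were higher and none lower in the whole gate, among them Ccnb1, a mitotic cyclin gene (log2 fold change 1.48), and 0 of 20 were called in the 160 nuclei. Mki67, a proliferation marker, was 421, 357, 468 and 221 CPM against 139 to 230 CPM (log2 fold change 0.92, SE 0.157, adjusted p = 0.00378). None of 17 S phase genes was called by edgeR in the whole gate, with 1 at an unadjusted p under 0.05, and in the 160 nuclei 1 of 13 was called, Mcm6, a gene of the replicative helicase chosen after its values were seen (log2 fold change 0.81).

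Dnmt1 itself did not pass the genotype test in mural nuclei. It was 84.1 and 67.7 CPM in KO and 95.6 and 82.7 CPM in controls, with overlapping ranges and a log2 fold change of -0.29 (SE 0.254, adjusted p = 0.717). A Dnmt1 transcript was counted in 40.0% of the 160 nuclei and in 68.2% of the 44 without Abcc9. After thinning to 5000 transcripts it was counted in 26.9% of the 145 that were deep enough and in 36.4% of the 44. In the 160 nuclei Dnmt1 was 85.8 and 70.0 CPM in KO and 112 and 89.7 CPM in controls, a log2 fold change of -0.46 (SE 0.302) that was not called. These values did not overlap between genotypes, nor did those of 29.6% of all genes tested in the 160 nuclei. Endothelial nuclei had 52.5 and 81.9 CPM in KO and 60.8 and 64.7 CPM in controls. Against endothelium, Dnmt3a, a de novo methyltransferase gene, was higher by 0.88 (153 to 217 against 81.5 to 121 CPM, adjusted p = 0.0134) and Tet1, encoding an enzyme that oxidizes methylcytosine, by 0.83. Dnmt3b was lower by 2.18. Of 15 DNA methylation genes, these and Zbtb38 were the 4 called in the whole gate, 2 in each direction, beside 13.9% and 14.8% of all genes. Among the 160 nuclei 3 were higher and 1 lower of 14.

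The genotype comparison in the 204 mural nuclei called none of 8769 genes (0%) at an adjusted p under 0.05 in edgeR, with a smallest adjusted p of 0.197, while 1124 genes (12.8%) had an unadjusted p under 0.05. The absence of calls depended on the fit. Without the low-count filter edgeR called 582 genes, and DESeq2 called 57 genes, 23 higher and 34 lower in KO. Leaving out a KO library leaves 1 library in that arm, which is then assumed to vary like the 2 controls. In such fits edgeR called 115 genes without Dnmt1 KO replicate 1 and 463 without Dnmt1 KO replicate 2, and it called none without control replicate 1 or without control replicate 2. In the 160 nuclei with Abcc9, none of 5842 genes was called and 112 (1.92%) had an unadjusted p under 0.05. In endothelial nuclei none of 9343 (0%) was called, 319 (3.41%) had an unadjusted p under 0.05, edgeR called 155 without the low-count filter, DESeq2 called 4 and leaving out control replicate 1 gave 27. A difference of the genotype effect between mural and endothelial nuclei was called for none of 10319 genes (0%), with 624 at an unadjusted p under 0.05, 179 without the low-count filter and 8 by DESeq2. Leaving out control replicate 1 or 2, which likewise leaves a control arm of 1 library, gave 245 or 174. With mural nuclei limited to those with Abcc9 and all libraries kept, the difference was called for none of 9305 genes by edgeR, with 169 at an unadjusted p under 0.05.

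Genes with a small genotype p mostly differed between the nuclei with and without Abcc9 as well. Of 588 genes that were lower in KO at an unadjusted p under 0.05, 536 (91.2%) had a higher level in nuclei without Abcc9 than in nuclei with it. Of 536 genes higher in KO, 52 (9.70%) did, beside 48.4% of all genes tested. Both comparisons use the same nuclei, and those without Abcc9 made up more of the gate in controls. These shares were therefore partly fixed beforehand and are no separate test. The 23 other mural markers tested had a median log2 fold change of 0.90 in KO against control in the whole gate, with 21 above 0, and of 0.08 in the 160 nuclei, with 12 above 0. The 9 progenitor and glial markers had a median of -1.44, all below 0, and the 4 tested in the 160 nuclei a median of -0.01. The 17 neuron markers had a median of -0.80 in the whole gate, with 15 below 0, and the 12 tested in the 160 nuclei a median of -0.89, with 10 below 0. The sum of the neuron list in the 160 nuclei overlapped between genotypes, at 421 and 3400 CPM in KO and 4121 and 1119 CPM in controls. Doublet calls among these nuclei were 0 and 11 in KO and 5 and 0 in controls. In endothelial nuclei 18 neuron markers had a median of -0.70, with 14 below 0. Their part in the genotype values was not tested beyond leaving the 44 nuclei out.

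The 5 genes with the smallest p were Tmem163, Gria1, Smoc1, Tafa5 and Tbx2. Tmem163, encoding a zinc transporter, was 6.01 and 4.18 CPM in KO and 80.8 and 71.8 CPM in controls (log2 fold change -4.01, SE 0.403, adjusted p = 0.197), and in nuclei with Abcc9 it was 4.29, 3.89, 29.9 and 4.27 CPM, too low to be tested. Gria1, an AMPA receptor subunit gene, was 120 and 137 CPM in KO and 539 and 464 CPM in controls, a log2 fold change of -1.97. Among the 160 nuclei Gria1 was 30.04 and 116 CPM in KO and 650 and 137 CPM in controls, a difference of -2.42 (SE 0.999). The high control value was in control replicate 1 alone. That library also had the highest neuron marker sum in these nuclei, 4121 CPM, and 5 of its 31 nuclei with Abcc9 were called doublets. The part of either in the Gria1 values was not tested. Smoc1, a matricellular protein gene, and Tafa5, a secreted factor gene of the nervous system, were lower by 2.18 and 1.54. Tafa5 differed by -0.94 (SE 1.17) among the 160 nuclei, and Smoc1 was too low to be tested. Tbx2 was the 1 gene of the 5 that was higher in KO. Its KO levels were 120 and 117 CPM and its control levels 36.1 and 36.6 CPM, a log2 fold change of 1.68 with SE 0.243. In the 160 nuclei it was 172 and 135 CPM against 65.8 and 115 CPM, a difference of 0.72. The adjusted p was 0.197 for all 5 in edgeR's test, so none passed. All 5 and Ebf1 were among the genes called without the low-count filter, and Gria1, Tafa5 and Ebf1 were called by DESeq2. The 5 were picked by their p in these same counts, so such calls are no separate support.

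Ebf1 differed between genotypes by 1.11 (SE 0.226, adjusted p = 0.197) in the whole gate and by 0.17 (SE 0.390) in the 160 nuclei, where its levels were 8301 and 5550 CPM in KO and 4890 and 6923 CPM in controls. Cald1 went from 1.04 to 0.08, Col4a1 from 1.21 to 0.26 and Gucy1a1, a guanylate cyclase subunit gene, from 0.99 to 0.19. The values of the 160 nuclei overlapped between genotypes for Ebf1, Cald1 and Col4a1.

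Of the 5842 genes tested in the 160 nuclei, 23 had an estimated log2 fold change above 2 and 20 one below -2, and none was called. The smallest adjusted p among them in edgeR's test was 0.999. Itga8, an integrin gene of mesenchymal cells, was chosen after its values were seen. It was 77.3 and 165 CPM in KO and 15.9 and 8.54 CPM in controls. Its log2 fold change was 3.18 (SE 0.609), not called. In the whole gate it was 3.83 (adjusted p = 0.197 in edgeR's test), not called either. Rarb, a retinoic acid receptor gene chosen the same way, was 176 and 207 CPM in KO and 41.9 and 38.4 CPM in controls of the 160 nuclei, a difference of 2.19, and 1.91 in the whole gate. Cntnap5b, a gene of the neurexin family chosen the same way, went the other way, at 8.58 and 14.6 CPM against 79.7 and 107 CPM, a difference of -2.88, and -1.93 in the whole gate. The groups did not overlap for these 3 genes, nor for 29.6% of all genes tested in the 160 nuclei. The sum of G2 and M phase genes in the 160 nuclei was 2691 and 2283 CPM in KO and 1254 and 653 CPM in controls, and in endothelial nuclei 1101 and 1549 against 1354 and 1116 CPM. All 19 genes of this list that were tested in the 160 nuclei had a log2 fold change above 0, with a median of 1.41. Of all 5842 genes tested there 2788 did, with a median of -0.02. In endothelial nuclei 15 of 23 did, with a median of 0.16. At least 5 transcripts of the list were held by 7 of 29 and 28 of 83 nuclei in KO and 11 of 31 and 2 of 17 in controls. These shares, taken without thinning, overlap between genotypes. After thinning they were 29.2% and 29.3% in KO and 24.1% and 5.88% in controls, which do not overlap. The lowest value, in control replicate 2, is 1 of 17 nuclei. Genes counted in the same nuclei are not separate observations. Within batch 1 alone the mural sums were 2691 and 2283 against 1254 CPM, so that the control side is a single library there.

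**Figure D5:**
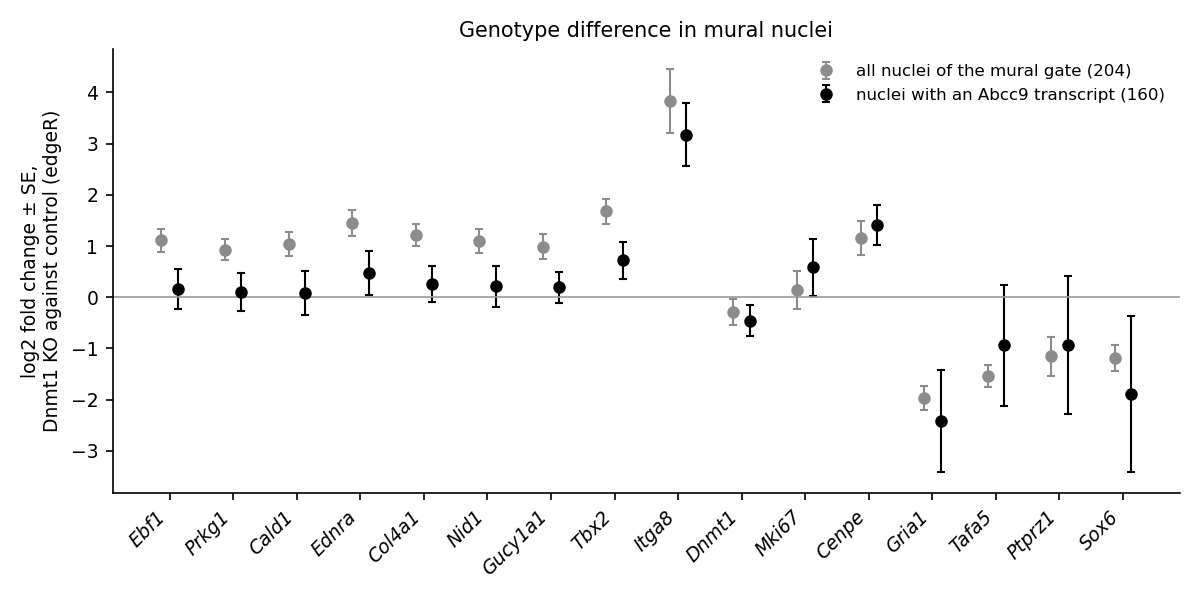
Points give the edgeR log2 fold change of Dnmt1 KO against control in mural nuclei with bars of ± 1 SE, for 16 genes, once in all 204 nuclei of the gate and once in the 160 nuclei with an Abcc9 transcript. Ebf1 moves from 1.11 to 0.17, Cald1 from 1.04 to 0.08 and Itga8 from 3.83 to 3.18 when nuclei without Abcc9 are left out.

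The sex of the libraries, read from Xist and Uty in these mice, fell together with the replicate number and not with genotype. Xist, the RNA of the inactive X, stood at 1538 CPM in mural nuclei of the first Dnmt1 KO library and 1427 CPM in the first control, but at 2.51 and 1.36 CPM in the second of each. For the Y-linked gene Uty the corresponding levels were 0 and 1.06 CPM, and 226 and 222 CPM.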

How the data were processed

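Per the labels and the study's methods, nuclei of snap-frozen tissue were isolated on a sucrose gradient and barcoded by split-pool labeling (Parse Evercode), reads were processed in Trailmaker on GRCm39, and the authors deposited raw transcript counts per gene and barcode for each library, unfiltered (1127729 barcodes, 56884 genes). The Trailmaker version is not given in the sources used here. The processing notes also name R 4.4.1 and Seurat 5.0.1.9001. No mitochondrial limit was needed, since no retained nucleus was over 10%.

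The members and gene lists were chosen with earlier results of these data known. The split by Abcc9 was chosen after the data were seen. All other nuclei are those outside the mural, endothelial and fibroblast gates. The fibroblast gate asked for at least 3 transcripts of Dcn and Lum together and at most 2 of Flt1. It also asked for at least 3 of Col1a1, Col1a2 and Col3a1 together. Counts were summed per library and gate, given as CPM, and the summed counts were tested in edgeR 4.0.16 (R 4.3.3; TMM, filterByExpr, quasi-likelihood, Benjamini-Hochberg, threshold 0.05; SE from fold change and F), with library as a block for mural against endothelial. DESeq2 1.42.0 was an alternative. Shares were compared by exact permutation. Doublets were called with Scrublet in scanpy 1.11.5 at an expected 5% and kept. Coordinates are from GENCODE on GRCm39, which matched 56323 gene IDs. Named genes were the gate genes, up to 4 abundant and up to 4 most changed members of each list, the 10 largest rises and falls outside the lists with at least 50 CPM in the higher class, the 5 smallest genotype p, Dnmt1, Sst and sex genes. Genes named beyond these were chosen after their values were seen. The lists also count a gene that is not reported here.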

Additional observations from a re-analysis of the deposited data

How the results depend on the processing

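The difference in mural share turned to -0.0476 points with a gate minimum of 2 transcripts and ran from -0.0466 to 0.113 over libraries left out. It was 0.102 with a gate minimum of 5, 0.178 with nuclei limited by reads, 0.122 after thinning, 0.0621 without doublet calls and 0.208 for nuclei with Abcc9, and the groups did not overlap in the last 3 of these or with a minimum of 2. The difference in the mural part of mural and endothelial nuclei turned to 2.14 with a gate minimum of 5, 1.30 without doublet calls, 3.50 after thinning and 7.14 for nuclei with Abcc9, an alternative added after the data were seen, and ran from -11.3 to 8.83 over libraries left out (0.927 without control replicate 2). Of the calls against endothelium, 812 were higher with a gate minimum of 5, and 789 higher and 871 lower for nuclei with Abcc9. Without a replicate block the fit called 1236 higher and 1357 lower, and leaving out libraries gave 942 to 1139 higher and 951 to 1240 lower.

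The genotype test in mural nuclei called 582 genes with no low-count filter and 57 with DESeq2, and 0 to 463 over libraries left out. In endothelial nuclei it called 155 with no filter, 4 with DESeq2, 14 with batch as a covariate and 0 to 27 over libraries left out. The difference of the genotype effect was called for 179 genes with no filter, 8 with DESeq2 and 0 to 245 over libraries left out. With a replicate block the genotype test called 0 genes in mural nuclei (983 at an unadjusted p under 0.05) and 0 in endothelial nuclei (512). Batch as a covariate gave 0 in mural nuclei (629). The deviations of same-numbered libraries correlated at -0.0845 in mural and 0.134 in endothelial nuclei, so the numbers were not taken as pairs. Sex fell together with the replicate number, so the replicate block also stands for sex. The main genotype fit has no term for sex.

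Against endothelium, Ebf1 turned to -0.10 and Nid1 to -0.34 with a gate minimum of 2, and Col4a1 turned to 0.39 with a minimum of 5, 0.24 with nuclei limited by reads in place of transcripts, and 0.66 for nuclei with Abcc9. Col4a2 also changed sign for nuclei with Abcc9. The cause of these turns was not tested. In the other settings, 71 comparison values stayed on their side. Of the named genes, 25 were followed against endothelium and 7 by genotype, and Col4a2 was not among them. Of their values 378 stayed, 29 gained a call, most of them genotype values in mural nuclei, and 3 lost one. The number of nuclei limits the precision of control replicate 2 and Dnmt1 KO replicate 1, with 31 and 34 mural nuclei. Without 1 library of an arm, the other is assumed to vary like the other group.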
